A study of Mesocricetus auratus with 21 samples.

Results

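*Ddx4*, *Ddx25* and *Dazl*, 3 of the 22285 genes counted in golden hamster testis, encode RNA-binding proteins of germ cells. They were selected by identifier (ENSMAUG00000019873, ENSMAUG00000012406 and ENSMAUG00000018931) and not by any measured value, and all 3 passed the filter on low counts at each of the 5 ages. Whole testes came from *Mov10l1*+/+ hamsters (wild type) and from *Mov10l1*-/- hamsters (knockout), which lack exon 20 of the piRNA helicase gene *Mov10l1* on both alleles. The deletion was made with CRISPR–Cas9, all knockouts carry the allele passed on by 1 founder female, and the heterozygotes were bred with outbred wild-type animals. Testes were taken at 0, 9, 13 and 21 days post partum (d.p.p.) and from adults (wild type 65 and 23 weeks old, knockout 63 and 53 weeks), with 2 libraries per genotype and age except 3 wild-type libraries at 9 d.p.p.

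*Ddx4* (also known as VASA) encodes a DEAD-box RNA helicase that marks the germline and sits in the germ granules where piRNAs, the small RNAs that silence transposons, are made. *Ddx25* encodes GRTH, a related DEAD-box helicase of the testis, which exports and stores mRNAs that are translated late in sperm formation. *Dazl* encodes a protein with an RNA-recognition motif that binds the 3′ untranslated regions of germ-cell mRNAs and regulates their translation from the earliest male germ cells onwards. In the testis *Ddx4* and *Dazl* are markers of germ cells as opposed to Sertoli, Leydig and other somatic cells. The paper names *Ddx25* among germline factors too, but its level in Leydig cells was not examined here. Because whole testes were sequenced, fewer germ cells and less of an mRNA per germ cell cannot be told apart.

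The libraries held between 3550217 and 77527451 counts, and levels are given as CPM (counts per 1000000 of the library's counts), scaled by TMM over all 21 libraries. *Mov10l1* itself was at 19.5 to 134 CPM in the wild-type libraries and at 0.129 to 10.8 CPM in the knockout libraries, and at each age every knockout library lay below every wild-type library. At 9 d.p.p. both knockout libraries are labelled with the same animal, so their spread is not one between animals. Libraries of 0 and 9 d.p.p. were read single-end (75 nt) and the later ones paired-end (150 nt), so ages are tested against each other only within a layout. Levels are not compared between genes, as CPM takes no account of transcript length.

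The plot of levels by library shows 14 of the 15 combinations of gene and age without any overlap between the genotypes. In 12 of these 14 the wild type was higher, at 9 d.p.p. and later. All knockout libraries lay below all wild types for 21.0% of the genes tested at 9 d.p.p., 19.4% at 13 d.p.p., 33.7% at 21 d.p.p. and 41.7% in adults, so a lack of overlap is common with so few libraries. In the other 2, *Ddx25* and *Dazl* at 0 d.p.p., the knockout was higher, as were all knockout libraries for 25.8% of the genes tested at that age.

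**Figure D1:**
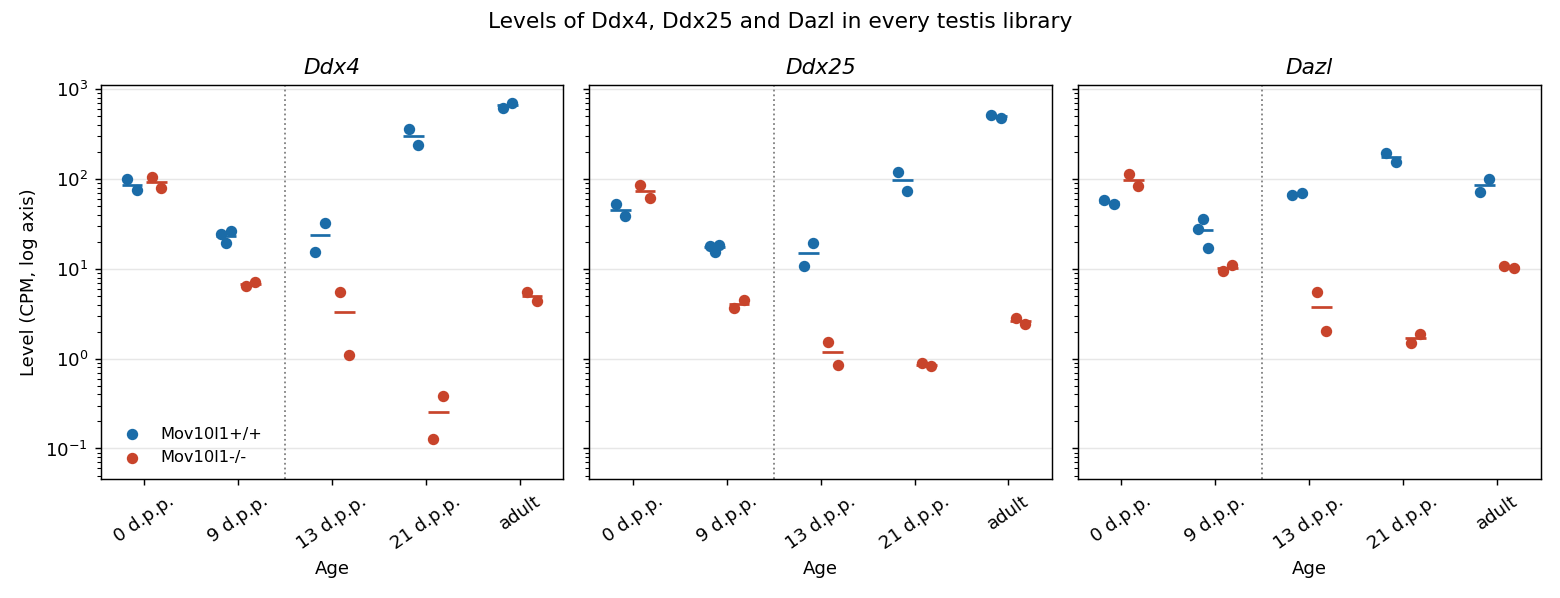
Level of each gene (CPM, log axis) by age, with 1 point per library, blue for wild type and red for *Mov10l1*-/-, and a bar at each group mean; the dotted line parts single-end from paired-end ages. Knockout points for *Ddx4* run from 79 to 107 CPM at 0 d.p.p. down to 0.129 and 0.381 CPM at 21 d.p.p. and back to 4.41 and 5.57 CPM in adults, while the wild-type points rise to 616 and 705 CPM.

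At 0 d.p.p. *Dazl* was higher in the knockout, and *Ddx25* and *Ddx4* did not pass the test. Wild-type *Dazl* levels were 58.3 and 52.3 CPM, and those of the knockout 112 and 83.3 CPM. The groups did not overlap, and *Dazl* was 0.83 ± 0.13 (SE) higher on the log2 scale (adjusted p = 0.0049, edgeR's quasi-likelihood test, Benjamini-Hochberg over 16333 genes, n = 2 and 2). A gene is called when its adjusted p is below 0.01, and 1.93% of all genes were called in either direction at this age, with 1 of the 3 genes among them. *Ddx25* was at 52.4 and 38.3 CPM in wild type and at 85.3 and 61.3 CPM in knockout, again without overlap, but its difference of 0.70 ± 0.16 (SE) did not pass the threshold (adjusted p = 0.0257, edgeR). *Ddx4* was at 99.3 and 74.6 CPM in wild type and at 107 and 78.9 CPM in knockout, which overlap, with a difference of 0.10 ± 0.15 (SE) and an adjusted p of 0.769 in the edgeR test.

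The *Dazl* call at 0 d.p.p. was lost without wild-type replicate 2 (0.76) and in the joint edgeR fit with 9 d.p.p. (0.81, adjusted p = 0.0692). *Ddx25* passed without wild-type replicate 1 (0.94) and without knockout replicate 2 (0.88), also by edgeR. Leaving out 1 library leaves 1 in its group, so those fits cannot decide whether a gene passes. No prefix of the animal codes is shared by both genotypes at this age, and both knockout animals share one, so prefix and genotype cannot be told apart. Of the 2 Sertoli cell markers with an identifier (of 8 listed), *Inha* was called lower in the knockout at 0 d.p.p. by edgeR and both *Inha* and *Clu* by DESeq2, and their summed level was 1526 to 1795 CPM in wild type and 897 to 1171 CPM in knockout. The 7 spermatogonial markers summed to 107 to 125 CPM in wild type and 111 to 131 CPM in knockout, which overlap, with 1 called lower by edgeR. The meiotic markers (3 of 4) summed to 23.0 to 39.7 and 47.6 to 58.2 CPM, with none called by edgeR and 2 by DESeq2. The late germ-cell markers (3 of 6) summed to 15.9 to 18.1 and 20.0 to 26.0 CPM, with 1 called lower by edgeR. Of all genes 1.93% were called by edgeR at this age, and DESeq2 called 338 lower and 358 higher of 15995. Most marker identifiers come from tables of genes that the study called. Marker calls at 0 and 9 d.p.p. are thus not independent evidence. The part of these sums in the *Dazl* result was not tested.

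At 9 d.p.p. both helicase genes were lower in the knockout, at 29.1% (*Ddx4*) and 23.6% (*Ddx25*) of the wild-type mean. *Ddx4* measured 24.5, 19.6 and 26.1 CPM in wild type and 6.45 and 7.17 CPM in knockout, and the lowest wild-type library exceeded the highest knockout library 2.73-fold. Its log2 fold change was -1.78 ± 0.14 (SE, adjusted p = 0.00229, edgeR, n = 3 and 2), and 1.70% of the tested genes had a lower value. *Ddx25* was at 18.1, 15.6 and 18.6 CPM in wild type and at 3.71 and 4.52 CPM in knockout. It fell by 2.08 on the log2 scale, with an SE of 0.13 (adjusted p = 8.52e-04, edgeR), and the gap between the groups was 3.45-fold. *Dazl* was more spread among the wild types, at 27.9, 35.6 and 17.3 CPM, against 9.56 and 10.9 CPM in knockout. The *Dazl* groups did not overlap either, yet the difference of -1.40 ± 0.26 (SE) did not pass (adjusted p = 0.0390, edgeR).

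Calls lower in the knockout made up 0.342% of the 15776 genes tested at 9 d.p.p., and 2 of the 3 genes were among them. With the knockout libraries of the 1 animal summed into 1, neither was called, at log2 fold changes of -1.78 for *Ddx4* and -2.08 for *Ddx25*. The knockout group then held 1 library, so this setting cannot decide whether a call holds. The *Ddx4* call was lost without wild-type replicate 1 (adjusted p = 0.0122, edgeR), where 5 of 15534 genes were called lower. Without either knockout library the calls of both genes were lost, but the group again held 1 library. The log2 fold changes were then -1.71 and -1.87 for *Ddx4* and -1.95 and -2.24 for *Ddx25*. *Dazl* passed without wild-type replicate 3, the lowest *Dazl* value of its group (-1.64, adjusted p = 4.62e-04, edgeR). Without that replicate 496 of 15569 genes were called lower, against 54 with it. That replicate is also the only wild type whose animal code shares its prefix with the knockout animal. Against it alone, the level in wild type was 3.84-fold that of the knockout mean for *Ddx4*, 4.52-fold for *Ddx25* and 1.69-fold for *Dazl*.

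At 13 d.p.p. the knockout means were 5.47% (*Dazl*), 7.83% (*Ddx25*) and 13.8% (*Ddx4*) of those of wild type, but none of the genes passed the edgeR test by genotype alone. *Dazl* measured 67.1 and 70.6 CPM in wild type and 5.48 and 2.05 CPM in knockout, with a log2 difference of -4.35 ± 0.51 (SE, adjusted p = 0.0133, edgeR, n = 2 and 2). *Ddx25* was at 10.6 and 19.5 CPM in wild type and at 1.51 and 0.844 CPM in knockout, a difference of -3.83 ± 0.53 (SE, adjusted p = 0.0188, edgeR). *Ddx4* was at 15.3 and 32.4 CPM in wild type and at 5.48 and 1.10 CPM in knockout, a difference of -3.03 ± 0.75 (SE, adjusted p = 0.132, edgeR). None of the groups overlapped, and the knockout replicates of *Ddx4* lay furthest apart. All 3 genes had an unadjusted p below 0.05, and DESeq2 called all 3 (log2 -2.92, -3.74 and -4.26 for *Ddx4*, *Ddx25* and *Dazl*). By edgeR 0.121% of the 13254 genes tested were called lower at this age, and by DESeq2 267 of 16139.

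Each replicate number of 13 d.p.p. marks animals with the same code prefix, 1 of each genotype, so the genotypes can be set side by side within a prefix. In replicate 1 the wild type was 2.80-fold the knockout for *Ddx4*, 7.02-fold for *Ddx25* and 12.2-fold for *Dazl*. In replicate 2 these ratios were 29.3, 23.1 and 34.5. Both prefixes gave the same direction for each gene, and each ratio was larger in replicate 2. With the replicate number as a block in the edgeR fit all 3 genes were called, at log2 differences of -3.23 for *Ddx4*, -3.81 for *Ddx25* and -4.47 for *Dazl* (adjusted p = 3.62e-10, 2.48e-12 and 9.03e-24). In that fit 458 of 13254 genes were called lower, against 16 without the block. The labels do not say what the shared prefix stands for. With any 1 of the 4 libraries left out, the log2 difference ranged from -4.55 to -2.21 for *Ddx4*, -4.27 to -3.30 for *Ddx25* and -5.20 to -3.74 for *Dazl*. Each of these fits leaves 1 library in a group, so they cannot decide whether a gene passes.

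At 21 d.p.p. the knockout levels of all 3 genes were below 1% of the wild-type means. *Ddx4* was at 365 and 239 CPM in wild type and at 0.129 and 0.381 CPM in knockout, which stand for 2 and 13 counts, with exact Poisson 95% intervals of 0.0156 to 0.464 CPM and 0.203 to 0.651 CPM (counting error only). It fell by 10.20 on the log2 scale, with an SE of 0.46 (adjusted p = 7.51e-06, edgeR, n = 2 and 2), and 0.128% of the tested genes had a lower value. *Ddx25* was at 120 and 73.5 CPM in wild type and at 0.900 and 0.820 CPM in knockout, and fell by 7.04 on the log2 scale (SE 0.35, adjusted p = 9.82e-06, edgeR). *Dazl* was at 195 and 153 CPM in wild type and at 1.48 and 1.90 CPM in knockout, and fell by 6.87 on the log2 scale (SE 0.27, adjusted p = 6.12e-06, edgeR). The lowest wild-type library exceeded the highest knockout library 627-fold for *Ddx4*, 81.6-fold for *Ddx25* and 80.5-fold for *Dazl*. All 3 were called lower, as were 20.9% of all genes tested (3102 lower and 2535 higher, against 1994 and 172 with library totals alone). Within the 1 code prefix that holds both genotypes at this age (wild-type replicate 2 and knockout replicate 1) the wild type was 1857-fold the knockout for *Ddx4*, 81.6-fold for *Ddx25* and 104-fold for *Dazl*.

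In adults the helicase genes were again below 1% of wild type in the knockout, but *Dazl* was at 12.2%. *Ddx4* was at 616 and 705 CPM in wild type and at 5.57 and 4.41 CPM in knockout, and fell by 7.24 on the log2 scale (SE 0.20, adjusted p = 2.07e-07, edgeR, n = 2 and 2). *Ddx25* was at 513 and 481 CPM in wild type and at 2.86 and 2.43 CPM in knockout, and fell by 7.74 on the log2 scale (SE 0.17, adjusted p = 1.25e-07, edgeR). *Dazl* was at 71.2 and 100 CPM in wild type and at 10.8 and 10.2 CPM in knockout, and fell by 3.21 on the log2 scale (SE 0.20, adjusted p = 6.39e-06, edgeR). The genotypes did not overlap for any of them. Calls lower in the knockout took 37.2% of the genes tested in adults, and the median gene was 0.14 higher on the log2 scale. Lower values than that of *Dazl* were found for 16.8% of the genes tested, against 6.10% for *Ddx4* and 5.35% for *Ddx25*. The adult animals differed in age within and between genotypes, and no code prefix was shared.

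**Figure D2:**
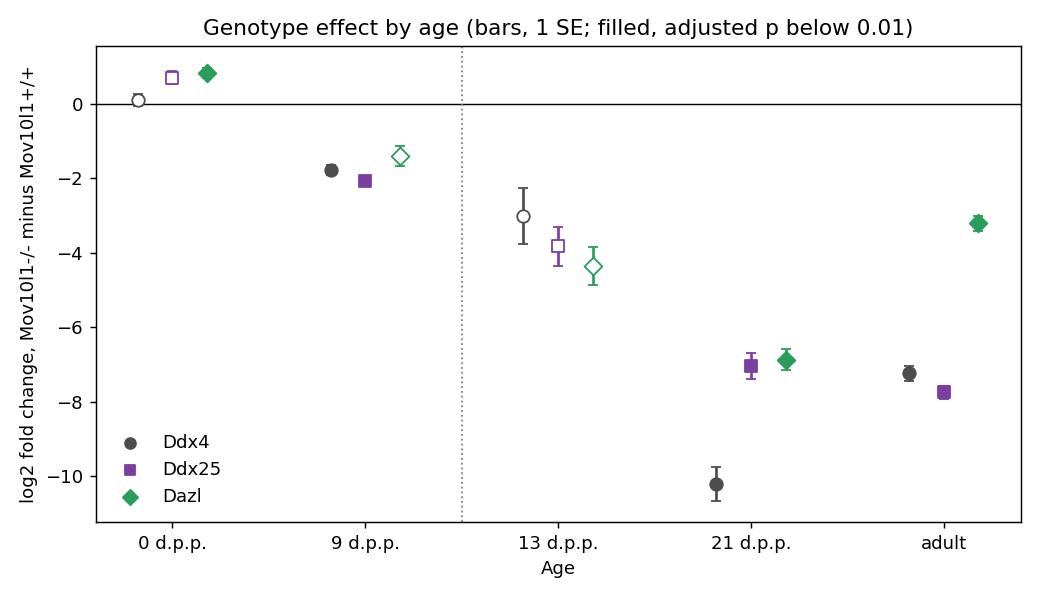
Log2 fold change (knockout minus wild type) by age for *Ddx4* (circles), *Ddx25* (squares) and *Dazl* (diamonds), with bars of 1 SE and filled symbols where the adjusted p is below 0.01; the dotted line parts single-end from paired-end ages. All values are above 0 at 0 d.p.p. and below 0 afterwards, and in adults *Dazl* (-3.21) stands above *Ddx4* (-7.24) and *Ddx25* (-7.74).

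From 0 to 9 d.p.p. all 3 genes fell in both genotypes, and fell further in the knockout. In wild type *Ddx4* fell 3.86-fold, *Ddx25* 2.71-fold and *Dazl* 2.13-fold (adjusted p = 1.27e-06, 1.33e-05 and 0.00147, edgeR over the 9 single-end libraries). In the knockout the falls were 14.0-fold, 18.4-fold and 9.87-fold (adjusted p = 4.64e-08, 3.34e-08 and 1.26e-06, edgeR). Falls were called for 25.7% of all genes in wild type and 29.6% in knockout. The test of the difference between the genotype effects of both ages, called lower for 1.03% of genes, passed for *Ddx4* (-1.86 ± 0.24 SE, adjusted p = 0.0039), *Ddx25* (-2.76 ± 0.25 SE, adjusted p = 0.00106) and *Dazl* (-2.21 ± 0.36 SE, adjusted p = 0.00691, all edgeR). With the 9 d.p.p. knockout libraries summed, only *Ddx25* kept this call, at differences of -1.86 for *Ddx4*, -2.76 for *Ddx25* and -2.21 for *Dazl*. Leaving out either knockout library of 9 d.p.p. ended all 3 calls of this difference. It was then -1.79 and -1.95 for *Ddx4*, -2.63 and -2.92 for *Ddx25* and -2.12 and -2.32 for *Dazl*. In all these settings the knockout group of 9 d.p.p. held 1 library, so they cannot decide whether a call holds. The *Ddx4* difference was also lost without the second wild type of 0 d.p.p. (-1.68), which leaves 1 wild type at that age. It was lost too without the first wild type of 9 d.p.p. (adjusted p = 0.0117, edgeR), where 33 of 16762 genes were called lower. The *Dazl* difference was lost without any 1 library of 0 d.p.p. or the first wild type of 9 d.p.p., with adjusted p up to 0.0514 (edgeR), and the wild-type fall of *Dazl* without the first wild type of 0 d.p.p. (adjusted p = 0.0194, edgeR).

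Between 13 and 21 d.p.p. the helicase genes rose in wild type, and no gene of the 3 was higher at 21 d.p.p. in the knockout means. *Ddx4* rose 13.2-fold and *Ddx25* 6.74-fold in wild type (adjusted p = 7.62e-04 and 2.11e-04, edgeR over the 12 paired-end libraries), where 6.40% of genes were called higher. *Dazl* was 2.58-fold higher at 21 d.p.p. in wild type and did not pass (adjusted p = 0.0124, edgeR). In the knockout none of the 3 passed, at log2 differences of -3.34 for *Ddx4*, -0.37 for *Ddx25* and -1.04 for *Dazl* (adjusted p = 0.0155, 0.633 and 0.114, edgeR). Of these, 2 had an unadjusted p below 0.05, and edgeR called 2.75% of genes lower there. DESeq2 called *Ddx4*, beside 1000 of 15500 genes called lower. The genotype effects of both ages differed for *Ddx4* (-7.07 ± 0.95 SE, adjusted p = 9.89e-04) and *Ddx25* (-3.12 ± 0.56 SE, adjusted p = 0.00482) but not past the threshold for *Dazl* (-2.41 ± 0.53 SE, adjusted p = 0.0132, edgeR), with 3.43% of genes called in this direction. The *Ddx25* difference was lost in edgeR without knockout replicate 1 of 13 d.p.p. (adjusted p = 0.0253), the first wild type of 21 d.p.p. (0.0115) or either knockout library of 21 d.p.p. (0.0193 and 0.0332). Without knockout replicate 2 of 13 d.p.p. the *Dazl* difference passed (-3.08, adjusted p = 0.00127, edgeR), as did the fall of *Ddx4* in the knockout (-4.16, adjusted p = 0.00181, edgeR).

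Between 21 d.p.p. and adulthood the 3 genes parted in wild type. *Ddx25* rose 5.08-fold (adjusted p = 5.38e-05, edgeR), at a background of 23.9% of genes called higher (3958 higher and 3988 lower, against 4628 and 2951 with RLE factors). *Ddx4* was 2.16-fold higher in adults and *Dazl* 2.05-fold lower, neither past the threshold (adjusted p = 0.0750 and 0.0174, edgeR). In the knockout *Ddx4* rose 16.8-fold and *Dazl* 6.09-fold (adjusted p = 0.00217 and 5.99e-04, edgeR), while *Ddx25*, 3.09-fold higher, did not pass (adjusted p = 0.0109, edgeR). Rises were called for 7.69% of genes in the knockout. The genotype effect differed between 21 d.p.p. and adults for *Dazl* (3.64 ± 0.51 SE, adjusted p = 1.93e-04, edgeR), where 15.0% of genes were called in this direction, and this call held without any 1 of the 8 libraries involved (adjusted p up to 0.00187). For *Ddx4* the difference was 2.96 ± 0.92 (SE) and for *Ddx25* -0.72 ± 0.51 (SE), with adjusted p of 0.0203 and 0.275 in the edgeR test. The rise of *Ddx4* in the knockout starts from 2 and 13 counts and was lost in edgeR without either knockout library of 21 d.p.p. (adjusted p = 0.0222 and 0.0213) or knockout replicate 1 of the adults (0.0113).

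Ordered by mean level in wild type, *Ddx4* and *Ddx25* were highest in adults, then at 21 d.p.p. and then at 0 d.p.p., and their libraries of 9 and 13 d.p.p. overlapped. *Dazl* was highest at 21 d.p.p., at 153 and 195 CPM, followed by adults, 13, 0 and 9 d.p.p., with no overlap between neighbours in that order. In the knockout each gene was highest at 0 d.p.p. and lowest at 21 d.p.p. The knockout libraries of *Dazl* in adults (10.2 and 10.8 CPM) lay within the range of those of 9 d.p.p. (9.56 and 10.9 CPM). This order spans both read layouts and is a description without a test.

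The difference between genotypes in the ratio of 2 genes within a library shows whether the genes changed by unequal amounts. Ratios were taken of CPM + 0.5, and that addition pulls the ratios of very low levels towards 0 on the log2 scale. The plot of ratios by library shows the widest gap in adults. There the log2 ratio of *Ddx4* over *Dazl* was 3.10 and 2.81 in wild type and -0.89 and -1.13 in the knockout, a mean difference of -3.96. The ratio of *Ddx25* over *Dazl* was 2.26 and 2.84 in adult wild type and -1.87 and -1.75 in adult knockout, a mean difference of -4.36. The ratio of *Ddx4* over *Ddx25* differed by 0.39 between the genotypes in adults, again without overlap. At 21 d.p.p. the ratio of *Ddx25* over *Dazl* overlapped between the genotypes, while that of *Ddx4* over *Ddx25* differed by -2.52. The size of the latter rests on the pseudocount, as knockout *Ddx4* lay below 0.5 CPM: it was -3.61 with none and -2.22 with 1 CPM. At 13 d.p.p. both ratios over *Dazl* were higher in the knockout, by 1.27 for *Ddx4* and 0.97 for *Ddx25*.

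Averaged over the 5 ages, the knockout minus wild-type difference in log2 ratio was -0.43 for *Ddx4* over *Ddx25*, -1.23 for *Ddx4* over *Dazl* and -0.79 for *Ddx25* over *Dazl*. In a two-sided exact permutation test of genotype labels within ages (12960 rearrangements), the p values were 0.220, 0.0347 and 0.217, and after adjustment over the 3 ratios 0.220, 0.104 and 0.220. None passed 0.05, and none did without a pseudocount (-0.58, -1.54 and -0.96, adjusted p = 0.257, 0.0845 and 0.192, exact permutation test). At a single age 2 libraries against 2 cannot go below an exact p of 0.333. Without 13 d.p.p. the ratio of *Ddx4* over *Dazl* passed (-1.85, adjusted p = 0.00833, exact permutation test), and the mean difference changed sign for *Ddx4* over *Ddx25* without 21 d.p.p. (0.089) and for *Ddx25* over *Dazl* without the adults (0.096).

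**Figure D3:**
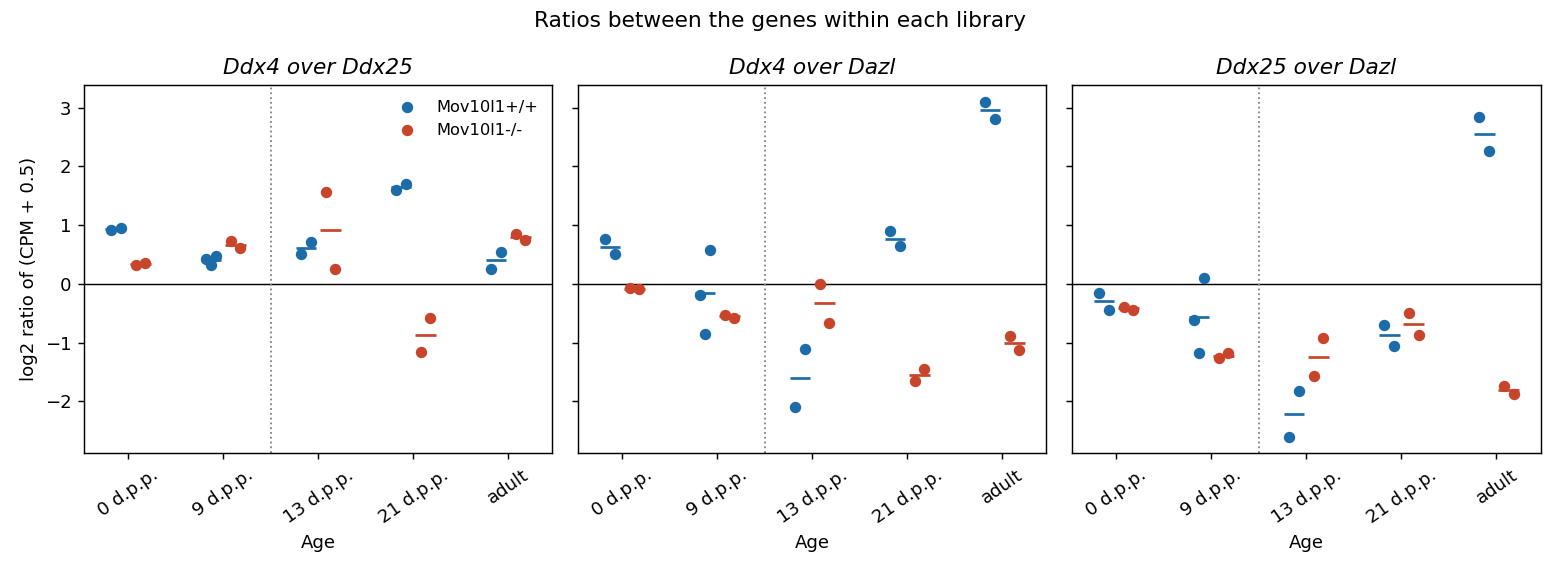
Log2 ratio of (CPM + 0.5) between the genes within each library by age, with 1 point per library, blue for wild type and red for *Mov10l1*-/-, and a bar at each group mean; the dotted line parts single-end from paired-end ages. In adults both ratios over *Dazl* lie above 2 in wild type and below -0.8 in the knockout, while *Ddx4* over *Ddx25* lies between 0.26 and 0.85 in all 4 adult libraries.

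Across all 21 libraries the profiles of the 3 genes were alike, and those of the helicase genes most of all. Pearson's r of log2(CPM + 0.5) was 0.98 between *Ddx4* and *Ddx25*, 0.92 between *Ddx4* and *Dazl* and 0.89 between *Ddx25* and *Dazl*. Among the 14401 other genes that averaged 1 CPM or more, *Ddx25* ranked 4 in likeness to *Ddx4*, and *Ddx4* ranked 4 in likeness to *Ddx25*, while *Dazl* ranked 60 for *Ddx4* and 176 for *Ddx25*. The libraries share genotype, age and layout, so these values describe the profile only, and 1002 of the genes carry a symbol. The named genes most like *Ddx4* were *Tdrd9*, *Tdrd1*, *Adad2*, *Ddx25* and *Topaz1* (r = 0.98 to 0.97). Those most like *Ddx25* were *Sox30*, *Adad1*, *Pnldc1*, *Ddx4* and *Fam178b* (r = 0.98 for each), and those most like *Dazl* were *Rnf17*, *Rpl10l*, *Topaz1*, *Sfmbt1* and *Piwil2* (r = 0.98 to 0.96). *Tdrd9*, *Tdrd1* and *Rnf17* encode Tudor-domain proteins of germ granules, *Pnldc1* the nuclease that trims piRNAs and *Piwil2* a piRNA-binding PIWI protein.

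Other genes of the same pathways were taken from 2 lists: regulators of germ-cell mRNAs (8 of 13 with an identifier) and germ granule and piRNA factors (14 of 20). The identifiers come from tables of genes that the study called on these samples, so the counts are not independent evidence. At 9 d.p.p. 1 mRNA regulator was called lower, *Elavl2*, an RNA-binding protein of the ELAV family (14.4 CPM in wild type, 7.13 CPM in knockout, log2 fold change -1.02 ± 0.12 SE, adjusted p = 0.00796, edgeR). Of the germ granule and piRNA factors 5 of 14 were called lower, beside 0.342% of all genes tested, and among the called genes the largest changes were those of *Rnf17* (-2.07), *Piwil2* (-1.87) and *Tdrd1* (-1.42), with adjusted p of 8.52e-04, 0.00253 and 8.52e-04 in the edgeR test. With the knockout libraries summed none of these 4 genes was called, as for *Ddx4* and *Ddx25*. Their log2 fold changes were then -2.06 (*Rnf17*), -1.87 (*Piwil2*), -1.42 (*Tdrd1*) and -1.02 (*Elavl2*). The knockout group held 1 library there, so this setting cannot decide whether a call holds. Each also lost its call without either knockout library, which again leaves 1. *Piwil2* and *Elavl2* lost it without wild-type replicate 1, where 5 of 15534 genes were called lower. *Rnf17*, *Tdrd1* and *Elavl2* lost it without wild-type replicate 2, where 3 of 15639 were. *Elavl2* also lost it with library totals alone (adjusted p = 0.0132, edgeR). DESeq2 called 6 of the 8 mRNA regulators and 11 of the 14 germ granule and piRNA factors at this age. Of all 17095 genes it called 431 lower and 73 higher.

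At 0 d.p.p. 1.93% of all genes were called in either direction, and 164 of 16333 were called higher. Beside *Dazl*, 2 of 8 mRNA regulators, *Elavl2* and *Ybx2*, were called higher in the knockout (log2 1.24 and 1.15, named after their values were seen). Of the germ granule and piRNA factors 0 of 14 were called by edgeR, where 7 had an unadjusted p below 0.05. DESeq2 called 3, beside 338 lower and 358 higher of 15995 genes. Log2 fold changes were below 0 for 2 of the 8 and for 5 of the 14. At 13 d.p.p. edgeR called 1 of 8 and 1 of 13 tested genes lower, beside 0.121% of all genes. DESeq2 called 6 and 10, beside 267 of 16139 genes called lower. The list medians were -3.41 and -3.75, and the median for all genes was 0.02. At 21 d.p.p. all 8 mRNA regulators and all 13 tested germ granule and piRNA factors were called lower, beside 20.9% of all genes, with medians of -7.12 and -8.40. In adults 5 of 8 and 13 of 13 were called lower, beside 37.2% of all genes, with medians of -4.58 and -4.62. *Dazl* at -3.21 was thus above both medians in adults, and *Ddx4* at -7.24 and *Ddx25* at -7.74 below both.

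**Figure D4:**
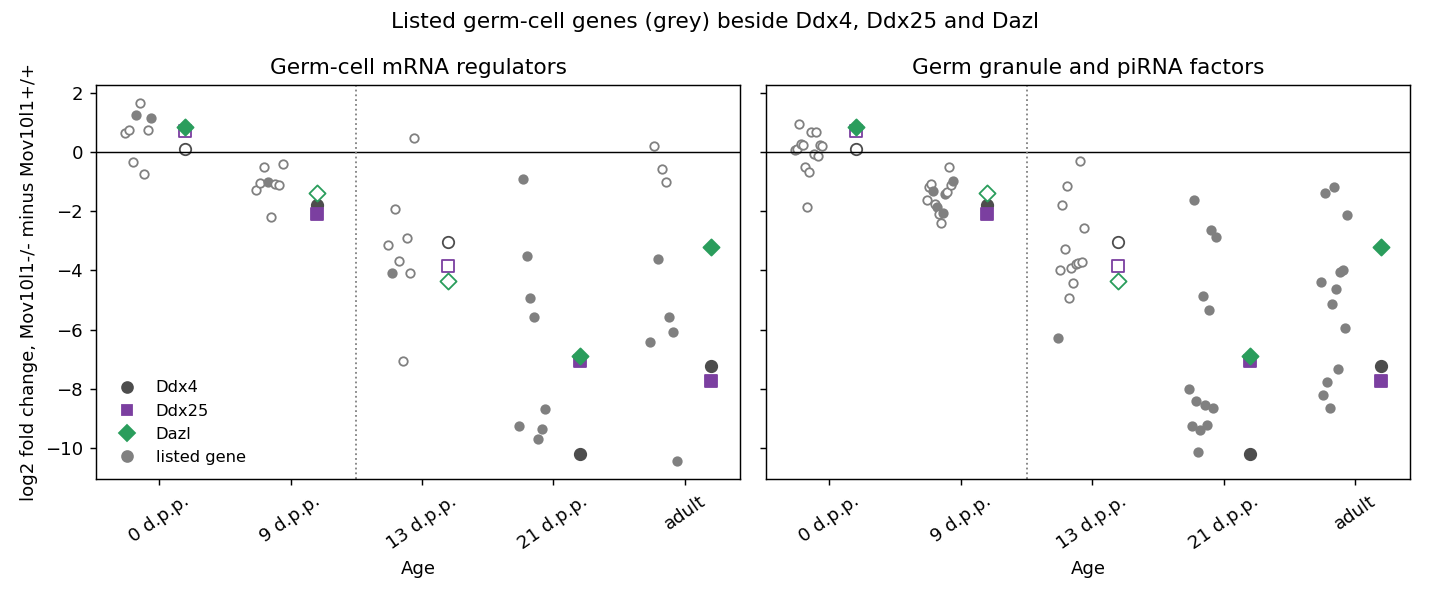
Log2 fold change (knockout minus wild type) by age for the tested genes of each list (grey circles) beside *Ddx4*, *Ddx25* and *Dazl* (coloured symbols); filled symbols have an adjusted p below 0.01, and the dotted line parts single-end from paired-end ages. At 21 d.p.p. every listed gene tested is filled and below 0, and in adults 3 mRNA regulators are open.

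Markers of germ cells and of somatic cells were summed as well. Most of their identifiers come from tables of genes that the study called, so their calls at 9 d.p.p. are not independent evidence. At 9 d.p.p. the 7 spermatogonial markers summed to 51.5 to 83.8 CPM in wild type and 38.2 to 40.6 CPM in knockout, with 1 called lower, and the Sertoli pair *Inha* and *Clu* to 2872 to 2973 and 3084 to 3177 CPM, with neither called by edgeR or DESeq2. The peritubular and stromal pair summed to 1301 to 1602 CPM in wild type and 1158 to 1210 CPM in knockout at 9 d.p.p., and the macrophage marker was at 11.8 to 16.2 and 8.96 to 9.38 CPM. Both thus lay lower in the knockout without overlap, and so did 21.0% of all genes tested at this age. DESeq2 called 1 gene of each, beside 431 lower and 73 higher of 17095 genes, while edgeR called none of these 3 genes. Their log2 fold changes were -0.18 (*Myh11*), -0.40 (*Col1a1*) and -0.59 (*Csf1r*), against -1.78 for *Ddx4* and -2.08 for *Ddx25*. Over all 15776 genes tested here, edgeR called 54 lower and 9 higher. At 13 d.p.p. the spermatogonial sum was 111 to 199 CPM in wild type and 28.6 to 45.3 CPM in knockout, with 2 called lower, and the Sertoli sum 1899 to 2637 and 3329 to 3618 CPM. Over all 13254 genes tested at this age, edgeR called 16 lower. From 13 d.p.p. on, no germ-cell sum overlapped between the genotypes. All knockout libraries lay below all wild types for 19.4% of genes at 13 d.p.p., 33.7% at 21 d.p.p. and 41.7% in adults. The spermatogonial markers, all 7 with an identifier, summed to 157 to 165 CPM in wild type and 51.6 to 59.7 CPM in knockout at 21 d.p.p. Of these markers 5 were called lower, beside 3102 of the 14834 genes tested. In adults the same 7 summed to 93.9 to 98.0 CPM in wild type and 160 to 172 CPM in knockout. Of the 7, 1 was called lower and 2 higher, beside 5865 lower and 5855 higher of 15761 genes tested. The higher adult sum came from *Kit*, a receptor tyrosine kinase that Leydig cells also carry (9.90 CPM in wild type and 125 CPM in knockout). Without it the other 6 markers summed to 84.9 to 87.3 CPM in wild type and 38.8 to 44.2 CPM in knockout. That lower sum came from *Id4* (62.6 and 6.41 CPM), the 1 called lower. *Zbtb16* was the other marker called higher (2.20 and 8.68 CPM), and only 2 of the 7 had a log2 fold change below 0. These 3 genes were named after their values were seen. The meiotic markers (3 of 4 with an identifier) were all called lower at 21 d.p.p. and in adults, from 595 to 746 CPM in adult wild type against 28.6 to 34.1 CPM in adult knockout. The late germ-cell markers (3 of 6) summed to 2056 to 2472 CPM in adult wild type and 6.64 to 7.24 CPM in adult knockout. All 3 were called lower, as were 37.2% of all genes tested in adults. The Sertoli markers *Inha* and *Clu* went the other way, from 572 to 794 CPM in adult wild type to 5050 to 5409 CPM in adult knockout, both called higher, and so did the peritubular and stromal pair (72.1 to 79.3 against 203 to 229 CPM) and the macrophage marker (4.71 to 10.1 against 34.7 to 50.9 CPM). None of the 5 Leydig cell markers and not the endothelial marker had an identifier. None of these sums was at 0, and their part in the levels of *Ddx4*, *Ddx25* and *Dazl* was not tested.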

How the data were processed

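RNA was extracted from whole testes, depleted of rRNA and sequenced from strand-specific libraries. The authors aligned reads with STAR 2.7.3a to MesAur1.0 and deposited estimated counts per Ensembl gene from featureCounts 2.0.0, unnormalized, with multimapping and overlapping reads counted as fractions. Of the 63 values of the 3 genes, 2 were not whole. All 21 columns were used, grouped by their labels, and rounded to whole numbers. Fits used edgeR 4.0.16 in R 4.3.3 (TMM, filterByExpr, quasi-likelihood test, Benjamini-Hochberg), 1 fit per age for the genotype and 1 per read layout for age and for interactions. The threshold was 0.01 and the pseudocount for log2 CPM 0.5. SEs were taken from the log2 fold change and its F value. Replicates of a group differed beyond counting noise in each pair (chi-square per degree of freedom of 19.7 or more). The test was tried on simulated data.

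Ratios without a pseudocount were added after the data were seen. Alternatives were DESeq2 1.42.0, RLE factors, library totals alone, no filter, the replicate number as a block, joint fits, summed knockout libraries of 9 d.p.p. and leaving out each library. Named genes were the 3 genes, *Mov10l1*, the 5 most alike with a symbol and up to 3 called at 9 d.p.p. per list and direction. The genes and lists were chosen with earlier results of these data known. Symbols came from the study's gene tables (1044 genes). Coordinates and sequences were not used here.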

Additional observations from a re-analysis of the deposited data

Results flagged for a closer look

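The difference between the genotype effects at 2 ages passed the edgeR quasi-likelihood test 6 times. From 0 to 9 d.p.p. the genotype effect moved by -1.86 for *Ddx4*, -2.76 for *Ddx25* and -2.21 for *Dazl* on the log2 scale. At 9 d.p.p. itself *Dazl* did not pass the genotype test (adjusted p = 0.0390, edgeR), and with the knockout libraries of that age summed *Ddx4* and *Ddx25* did not either (adjusted p = 0.0361 and 0.0197, edgeR). From 13 to 21 d.p.p. it moved by -7.07 for *Ddx4* and -3.12 for *Ddx25*. From 21 d.p.p. to adults it moved by 3.64 for *Dazl*, towards a smaller deficit.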

How the results depend on the processing

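The genotype calls of the 3 genes at 21 d.p.p. and in adults held in every setting tried for them, and so did the 0 to 9 d.p.p. falls in the knockout. With the 2 knockout libraries of 9 d.p.p. summed, log2 values barely moved (*Ddx4* -1.78, *Ddx25* -2.08, their difference from 0 d.p.p. -1.86 for *Ddx4*, and -2.21 for *Dazl*), but these calls were lost. The group then held 1 library, as both are labelled with the same animal, so this setting cannot decide whether the calls hold. The cause of the losses was not tested. The joint fit lost *Dazl* at birth (0.81) and gained *Ddx25* (-3.76) and *Dazl* (-4.31) at 13 d.p.p. The setting without a filter and DESeq2 gained calls and lost none of the 3 genes. Over all genes, those called lower at 13 d.p.p. were 428 and 267, against 16 in the main fit. At birth *Ddx25* passed by DESeq2 (0.69) and without a filter (0.70), as did *Dazl* at 9 d.p.p. (-1.40 by both). At 13 d.p.p. all 3 passed by DESeq2 (*Ddx4* -2.92, *Ddx25* -3.74, *Dazl* -4.26) and without a filter (-2.86, -3.66 and -4.19). From 13 to 21 d.p.p. *Dazl* in wild type (1.49 and 1.44), *Ddx4* in knockout (-3.59 and -3.39) and the *Dazl* genotype difference (-2.64 and -2.55) passed by DESeq2 and without a filter. From 21 d.p.p. to adults *Ddx25* in knockout (1.73 and 1.63) and the *Ddx4* genotype difference (2.87 and 2.69) passed by both, and *Ddx4* in wild type without a filter (1.37). With RLE factors *Dazl* from 13 to 21 d.p.p. in wild type (1.49) and *Ddx25* from 21 d.p.p. to adults in knockout (1.72) passed. The cause of these gains was not tested.

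The replicate numbers mark a shared code prefix at 13 d.p.p. alone, whose meaning is not stated. Deviations of same-numbered libraries correlated at 0.054, -0.12, 0.16, -0.13 and 0.069 from 0 d.p.p. to adults. The replicate block raised genes called lower from 152 to 667 at birth, from 54 to 477 at 9 d.p.p. and from 16 to 458 at 13 d.p.p., and it added *Ddx25* at birth (0.70), *Dazl* at 9 d.p.p. (-1.63) and all 3 genes at 13 d.p.p. (*Ddx4* -3.23, *Ddx25* -3.81, *Dazl* -4.47). It changed no other call of the 3 genes. A crossed pairing at 21 d.p.p., added after the data were seen, gave 3932 genes lower and 3687 higher, against 3102 and 2535 without pairing and 1994 and 172 with library totals alone.

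Leaving out 1 library at a time, the log2 difference at 0 d.p.p. ranged from -0.13 to 0.32 for *Ddx4*, reversing without wild-type replicate 2 (-0.085) and knockout replicate 1 (-0.13), from 0.45 to 0.94 for *Ddx25* and from 0.61 to 0.999 for *Dazl*. At 9 d.p.p. it ranged from -1.89 to -1.71, -2.24 to -1.95 and -1.64 to -1.14, and at 13 d.p.p. from -4.55 to -2.21, -4.27 to -3.30 and -5.20 to -3.74, in the same order of genes. The wild-type change of *Dazl* from 0 to 9 d.p.p. ranged from -1.31 to -0.85. The genotype difference ranged from -2.09 to -1.64, -3.01 to -2.51 and -2.45 to -1.95 for 0 to 9 d.p.p., and from -3.65 to -2.77 (*Ddx25*) and -3.08 to -1.70 (*Dazl*) for 13 to 21 d.p.p. In the knockout from 13 to 21 d.p.p. *Ddx4* ranged from -4.50 to -1.90, and *Ddx25* from -0.79 to 0.0065, reversing without knockout replicate 1 of 13 d.p.p. *Ddx4* in the knockout from 21 d.p.p. to adults ranged from 3.69 to 5.21. A lone library was assumed to vary like the other groups. Averages over ages of *Ddx4* over *Dazl* passed without 13 d.p.p. (-1.85), and *Ddx4* over *Ddx25* (0.089, without 21 d.p.p.) and *Ddx25* over *Dazl* (0.096, without adults) changed sign. Depth limits the levels of *Ddx4* in the knockout at 21 d.p.p., which rest on 2 and 13 counts.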
